A study of Homo sapiens with 11 samples.

Results

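The 10 genes described here encode the enzymes that modify and crosslink collagen: the prolyl 4-hydroxylase subunits P4HA1, P4HA2, P4HA3 and P4HB, the lysyl hydroxylases PLOD1, PLOD2 and PLOD3, and the lysyl oxidases LOX, LOXL2 and LOXL4. The list was drawn up with earlier results of these data known, and its members were found by gene symbol among the 28252 genes of the RT4 RNA-Seq files and the 26237 genes of the BEAS-2B H3K4me3 files, all 10 in both. In the 6 weeks of exposure to 100 μM NiCl2 that the study examined, the RNA of 2 of these genes rose in RT4 cells: PLOD2 about 10.8-fold and P4HA2 about 2.72-fold. None fell in that comparison, in which 1.45% of all genes tested rose and 0.71% fell. In BEAS-2B cells the H3K4me3 of no member's promoter differed by 1.5-fold or more between nickel-exposed and untreated cells, where 1.01% of all promoters were higher and 0.595% lower by that much, so that 0 of 10 members is close to the background.

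RT4 is a human urinary bladder epithelial line from a non-invasive bladder cancer, and BEAS-2B is a virally immortalized line from normal human bronchial epithelium that does not form tumours. The same 3 conditions were compared in each line. Untreated cells (UT) had no nickel, nickel-exposed cells (Ni-E) had 100 μM NiCl2 for 6 weeks, and nickel-washed-out cells (Ni-W) had the same exposure and were then grown without nickel. For RT4, 2 biological replicates per condition were measured by RNA-Seq, and Ni-W cells spent 2 weeks in nickel-free medium. For BEAS-2B, 1 H3K4me3 ChIP-Seq library per condition was analysed. The labels state 2 weeks of washout for both lines. They also describe the BEAS-2B Ni-W cells as a population grown from a single colony and cultured for more than 6 months after nickel. These cells thus stand for 1 clone. The study's methods give more than 6 months for them, unlike the 2 weeks of the RT4 cells. All RT4 samples share 1 line, as do all BEAS-2B samples.

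Prolyl 4-hydroxylase is a tetramer of α subunits (P4HA1, P4HA2 or P4HA3), which carry the active site, and of P4HB, the protein disulfide isomerase that serves as its β subunit. It turns proline into 4-hydroxyproline, on which the stability of the collagen triple helix depends. Lysyl hydroxylases act on lysines, PLOD2 on those of the telopeptides at the ends of the chains, and lysyl oxidases then oxidise lysines and hydroxylysines outside the cell to start crosslinks. The hydroxylases need iron, 2-oxoglutarate, oxygen and ascorbate, as do the EGLN enzymes that mark the hypoxia-inducible factor (HIF) for degradation, and nickel ions are known to inhibit enzymes of this type. P4HA1, P4HA2, PLOD2, LOX and LOXL2 are known as genes that HIF can induce, through the core motif ACGTG or GCGTG. Lysyl oxidases instead use copper. Collagens and their crosslinks are made mostly by fibroblasts and related cells, and epithelial cells make fewer types of collagen.

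In RefSeq on GRCh38.p14, PLOD2 lies at chr3:146069440-146161184, P4HA1 at chr10:73007217-73096866, and P4HA2 and LOX on the same chromosome at chr5:132190147-132227853 and chr5:122063195-122078259. P4HA3 is on chromosome 11, P4HB on 17, PLOD1 on 1, PLOD3 on 7, LOXL2 on 8 and LOXL4 on 10, as P4HA1 is. The promoter sequences of the members whose RNA is described most closely are shown first, because they carry, or lack, this motif. RefSeq promoter windows (GRCh38.p14) were found for 8 of the 10 members, all but P4HA3 and LOXL2, and the 250 bases before the start site were searched on both strands. Each sequence below reads 5′ to 3′ on the strand of its gene, all of them on the minus strand, and capitals mark a match to ACGTG or GCGTG on either strand, so that CACGT in capitals is ACGTG on the other strand. PLOD2 (chr3:146161185-146161434) holds 3 matches, GCGTG starting 213 bases before the start site and ACGTG at 200 and 146. P4HA1 (chr10:73096867-73097116) holds ACGTG once, 86 bases before it. LOX (chr5:122078260-122078509) holds ACGTG 4 times, at 185, 116, 98 and 42 bases, the most among the members, and is shown for that. RefSeq gives LOX further start sites, and the window of the outermost one is used. P4HA2 (chr5:132227092-132227341) holds none in this window, which lies 762 bases inside the outermost 5′ end that RefSeq gives for the gene.
PLOD2: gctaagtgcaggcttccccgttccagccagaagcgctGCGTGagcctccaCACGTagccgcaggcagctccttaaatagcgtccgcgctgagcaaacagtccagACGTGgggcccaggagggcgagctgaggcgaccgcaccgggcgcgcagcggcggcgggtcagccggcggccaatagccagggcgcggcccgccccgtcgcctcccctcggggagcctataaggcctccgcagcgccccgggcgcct
P4HA1: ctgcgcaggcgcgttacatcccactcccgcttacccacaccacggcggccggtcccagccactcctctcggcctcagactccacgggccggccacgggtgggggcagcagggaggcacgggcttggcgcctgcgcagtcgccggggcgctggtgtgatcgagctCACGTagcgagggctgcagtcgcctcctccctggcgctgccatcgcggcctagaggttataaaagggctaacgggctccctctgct
LOX: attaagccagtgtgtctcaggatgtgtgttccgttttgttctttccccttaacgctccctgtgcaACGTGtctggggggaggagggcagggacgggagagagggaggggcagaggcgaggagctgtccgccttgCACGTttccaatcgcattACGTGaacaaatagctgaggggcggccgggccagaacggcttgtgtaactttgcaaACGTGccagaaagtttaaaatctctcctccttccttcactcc
P4HA2: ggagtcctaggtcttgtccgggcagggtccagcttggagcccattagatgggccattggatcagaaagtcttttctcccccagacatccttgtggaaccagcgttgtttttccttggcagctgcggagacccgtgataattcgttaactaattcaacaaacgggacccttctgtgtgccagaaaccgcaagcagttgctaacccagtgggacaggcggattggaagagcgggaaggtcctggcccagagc

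Of all 35116 RefSeq windows of this length, 18.5% held ACGTG at least once, 0.669% held it 4 times or more, 43.2% held either motif, and 7.76% held 3 or more matches to either. None of the matches shown is part of CACGTG, the E-box, which 6.34% of windows held. Among the other members with a window, P4HB held GCGTG once and PLOD1 held it 2 times, while PLOD3 and LOXL4 held neither motif. The GC content was 72.4% for PLOD2, 70% for P4HA1, 55.2% for LOX and 54.8% for P4HA2, against a median of 58% over all windows. A match describes the letters of the window and does not show that a factor binds there.

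Estimated counts added up to 17075833 to 18280556 in the RT4 libraries whose titles carry no suffix (here the first libraries) and 25721265 to 27736454 in the duplicate libraries, so that the replicate number and the depth cannot be told apart. For this reason some fold changes, among them those of PLOD2, P4HA2 and P4HA1 in Ni-E vs UT, are also given within each set of libraries. Of 19 urothelial markers 18 were at 1 TPM or more in all 6 RT4 libraries, with a summed level of 14322 to 17915 TPM, 3 of them fell in Ni-E vs UT and 2 in Ni-W vs UT. These calls could not be checked with a library left out, because 1 library then remains in a group. Of 12 fibroblast and other mesenchymal markers, COL1A2, DCN, THY1, POSTN and TWIST1 were at 0 in every library, and the summed level was 8.36 to 8.59 TPM in UT cells, 40.04 to 41.03 TPM in Ni-E cells and 36.6 to 46.4 TPM in Ni-W cells. Most of that sum was ACTA2, at 6.61 to 7.48 TPM in UT cells and 34.2 to 41.2 TPM in the other libraries. Endothelial markers summed to 0.61 to 1.9 TPM. Leukocyte markers summed to 12.3 and 11.0 TPM in UT cells, 19.0 and 15.5 TPM in Ni-E cells and 23.2 and 21.2 TPM in Ni-W cells. The 2 leukocyte markers that were tested were both under an unadjusted p of 0.05 in Ni-W vs UT, as were 9.12% of all genes, and not called. The part of the mesenchymal and leukocyte markers in the results below was not tested. In bulk RNA, fewer cells of a type and less RNA per cell cannot be told apart. In BEAS-2B cells, the promoters of the epithelial keratin genes KRT8 and KRT18 held 7.33 and 7.26 RPKM of H3K4me3 in UT cells. Among the other bronchial epithelial markers, the promoters of NKX2-1, EPCAM, FOXJ1 and CDH1 held 2.76, 2.21, 1.55 and 1.02 RPKM, and those of KRT5, KRT14, TP63 and SCGB1A1 were below 0.4 RPKM.

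Levels are compared between genes in TPM, which is corrected for transcript length. In UT cells P4HB was far above the other members at 921 and 939 TPM. P4HA1 (28.2 to 48.1 TPM), PLOD1 (31.4 to 36.5 TPM) and PLOD3 (27.5 to 27.6 TPM) followed, with P4HA1 and PLOD1 overlapping, and then P4HA2 (10.6 to 12.6 TPM) and PLOD2 (3.21 to 4.34 TPM). LOX was at 0.44 to 0.48 TPM and LOXL2 at 0.17 to 0.34 TPM. P4HA3 and LOXL4 had between 0 and 2 counts in every library, at or under the floor of 3 counts, so that no fold change is given for them. The filter of edgeR on low counts (filterByExpr) kept them out of the test. The other 8 members were tested among 14502 genes with edgeR's quasi-likelihood test, and a gene was called when it changed by at least 1.5-fold with a Benjamini-Hochberg adjusted p below 0.05.

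**Figure D1:**
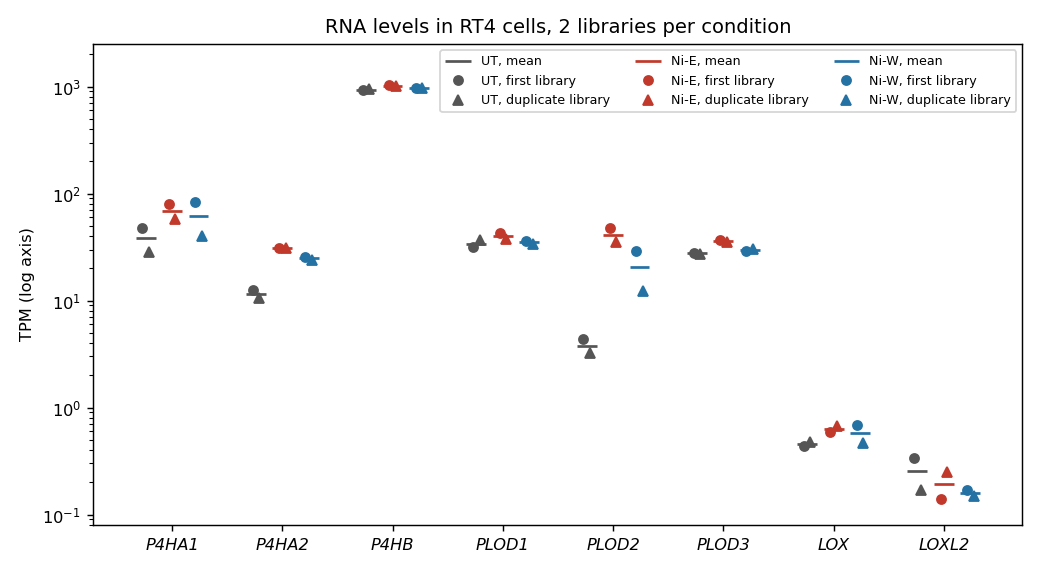
RNA levels of the 8 tested members in RT4 cells, in TPM on a log axis. Circles are first libraries, triangles are duplicate libraries and lines are the mean of the 2. PLOD2 lies at 3.21 to 4.34 TPM in UT cells and at 34.9 to 47.3 TPM in Ni-E cells, while P4HB stays between 921 and 1036 TPM in all 6 libraries.

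The question of the Ni-E vs UT comparison is which genes differ while nickel is present. Of the 8 tested members 2 rose, PLOD2 and P4HA2, and none fell. Over all genes tested 2.17% were called, 1.45% as higher and 0.71% as lower. The groups did not overlap in CPM, with Ni-E higher, for 5 members (P4HA1, P4HA2, PLOD2, PLOD3 and LOX), and 20.3% of all genes were of this kind. The median log2 fold change was 0.48 over the members and −0.01 over all genes.

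PLOD2 was measured at 4.34 and 3.21 TPM in UT cells (157 and 188 counts), 47.3 and 34.9 TPM in Ni-E cells (1689 and 2116 counts), and 29.0 and 12.4 TPM in Ni-W cells (905 and 740 counts). The 3 conditions did not overlap, with Ni-E highest and UT lowest, and the duplicate library was the lower of the 2 in each. The log2 fold change for Ni-E vs UT was 3.43 ± 0.35 (SE, adjusted p = 0.0169). Within the first libraries the fold was 10.9 and within the duplicate libraries 10.3. This call rests on both replicates of each group: leaving out any UT or Ni-E library kept the log2 fold change between 3.28 and 3.56 but gave adjusted p from 0.0760 to 0.153.

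P4HA2, the α subunit that forms the type II enzyme, was at 12.6 and 10.6 TPM in UT cells (345 and 447 counts), 30.8 and 30.7 TPM in Ni-E cells (886 and 1357 counts), and 25.7 and 23.8 TPM in Ni-W cells (670 and 1052 counts). Again the conditions were ordered Ni-E, Ni-W, UT without overlap. For Ni-E vs UT the log2 fold change was 1.45 ± 0.17 (SE, adjusted p = 0.0228), with a 2.63-fold difference in the first libraries and a 2.81-fold difference in the duplicates. Without any 1 of the UT or Ni-E libraries the log2 fold change was 1.41 to 1.49. Here too, a fit with 1 library in a group cannot show whether the call holds.

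P4HA2 overlaps an antisense gene, P4HA2-AS1, by 548 bases of exon, and the library kit used does not mark the strand, so that reads in the overlap cannot be told apart between them. P4HA2-AS1 had 8 and 19 counts in UT cells, 34 and 57 in Ni-E cells and 18 and 24 in Ni-W cells. Its levels were therefore also lowest in UT cells and highest in Ni-E cells. Its log2 fold change for Ni-E vs UT was 1.72 ± 0.39 (SE, adjusted p = 0.110), which did not pass the test. The counts of P4HA2 were 23.5 to 43.8 times those of the antisense gene.

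P4HA1, the α subunit of the type I enzyme and the more abundant one here, was at 48.1 and 28.2 TPM in UT cells, 79.8 and 57.4 TPM in Ni-E cells and 83.0 and 39.9 TPM in Ni-W cells. The duplicate library was lower in each condition, and in TPM the Ni-W libraries overlapped those of both other conditions. For Ni-E vs UT the log2 fold change of 0.86 ± 0.30 (SE) had an unadjusted p of 0.0317 and an adjusted p of 0.322, and the fold was 1.71 within the first libraries and 1.95 within the duplicates.

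The remaining members gave no call in this comparison. P4HB was at 921 and 939 TPM in UT cells, 1036 and 1002 TPM in Ni-E cells and 961 and 975 TPM in Ni-W cells, with a log2 fold change for Ni-E vs UT of 0.11 ± 0.21 (SE, adjusted p = 0.995). It is also a general folding enzyme of the endoplasmic reticulum. PLOD1, which acts on the helical part of collagen, gave 31.4 and 36.5 TPM in UT cells and 42.7 and 37.9 TPM in Ni-E cells (log2 fold change 0.22 ± 0.23, adjusted p = 0.936). Its fold was 1.40 within the first libraries and 0.997 within the duplicates. PLOD3, which can also transfer sugars to hydroxylysine, gave 27.6 and 27.5 TPM in UT cells and 37.1 and 35.4 TPM in Ni-E cells (log2 fold change 0.38 ± 0.22, adjusted p = 0.669). Its 2 groups did not overlap, but the difference did not pass the test.

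LOX, LOXL2 and LOXL4 were scarce in RT4 cells. LOX had 21 and 32 counts in UT cells, 28 and 55 in Ni-E cells and 29 and 37 in Ni-W cells, and its log2 fold change for Ni-E vs UT was 0.57 ± 0.33 (SE, adjusted p = 0.650). LOXL2 had 12 and 10 counts in UT cells, 5 and 15 in Ni-E cells and 5 and 9 in Ni-W cells. Its first libraries differed in the other direction from its duplicates, and the log2 fold change was −0.27 ± 0.54 (SE, adjusted p = 0.995). LOX differed by more than its SE and still did not pass the test. A difference that was not called at these counts is not shown to be absent.

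**Figure D2:**
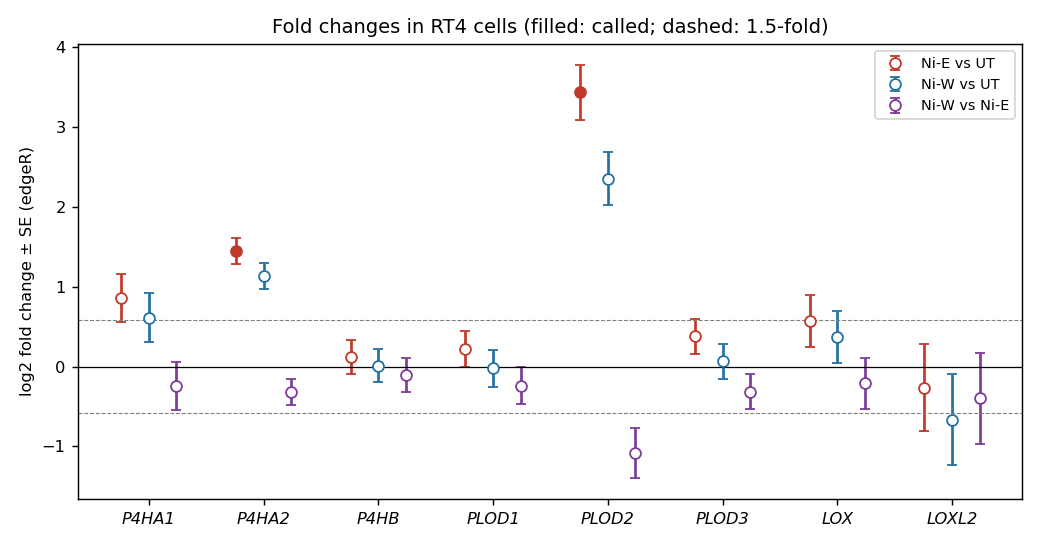
log2 fold changes of the 8 tested members in RT4 cells with their SE from edgeR, for Ni-E vs UT, Ni-W vs UT and Ni-W vs Ni-E. Filled points passed the fold and adjusted p thresholds, which are PLOD2 at 3.43 and P4HA2 at 1.45 in Ni-E vs UT, and dashed lines mark 1.5-fold.

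The Ni-W vs UT comparison asks what remains 2 weeks after nickel was removed. None of the 8 tested members was called by edgeR without a replicate block, and 0.6% of all genes were (0.503% higher and 0.0965% lower). By unadjusted p under 0.05 there were 2 members, PLOD2 and P4HA2, and 9.12% of all genes. DESeq2 called these 2 members among 437 of 19464 genes. The median log2 fold change was 0.21 over the members and 0.00 over all genes. PLOD2 had a log2 fold change of 2.35 ± 0.33 (SE, adjusted p = 0.0588), with a fold of 6.11 within the first libraries and 3.83 within the duplicates. Leaving out any Ni-W or UT library gave a log2 fold change for PLOD2 of 1.86 to 2.72. For P4HA2 the log2 fold change was 1.13 ± 0.17 (SE, adjusted p = 0.0647), with 2.07-fold and 2.31-fold differences. P4HA1 gave 0.61 ± 0.30 (SE, adjusted p = 0.726). In CPM the groups did not overlap with Ni-W higher for 4 members (P4HA1, P4HA2, PLOD2 and LOX), against 15.1% of all genes, and with Ni-W lower for LOXL2, against 14.1%. The log2 fold changes of P4HB, PLOD1, PLOD3 and LOX lay between −0.02 and 0.37, and LOXL2 was at −0.66 ± 0.56 (SE). These comparisons share the UT libraries with those above, so their values are given side by side only.

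The washout itself, Ni-W vs Ni-E, gave no call for any member by edgeR without a replicate block, by DESeq2 or by limma. In that edgeR test 0% of all genes were called, and 14 genes were called without the filter on low counts. At an unadjusted p under 0.05 there were 1 member, PLOD2, and 808 genes in all (5.57%). DESeq2 called 139 genes. PLOD2 was lower in Ni-W than in Ni-E cells by a log2 fold change of −1.08 ± 0.32 (SE, unadjusted p = 0.0148, adjusted p = 0.584). It was lower in both sets of libraries, by −0.84 in the first and −1.43 in the duplicates on the log2 scale. P4HA2 was at −0.31 ± 0.16 (SE) and PLOD3 at −0.32 ± 0.22 (SE). The groups did not overlap, with Ni-W lower, for 4 members (P4HA2, PLOD1, PLOD2 and PLOD3), and 12.7% of all genes were of this kind. The median was −0.28 over the members and 0.02 over all genes. In TPM, Ni-W cells kept 57.5% (first libraries) and 29.0% (duplicates) of the difference in PLOD2 between Ni-E and UT cells. For P4HA2 these shares were 71.9% and 65.6%, and for P4HA1 110% and 39.99%.

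Within the lysyl hydroxylases the make-up differed between conditions. PLOD2 supplied 6.85% and 4.78% of the summed TPM of PLOD1, PLOD2 and PLOD3 in UT cells, 37.2% and 32.2% in Ni-E cells, and 30.9% and 16.2% in Ni-W cells. The lowest Ni-E share was thus above the highest Ni-W share, and all Ni-W shares above those of UT cells. The summed level was 63.4 and 67.1 TPM in UT cells, 127 and 108 TPM in Ni-E cells and 94.0 and 76.4 TPM in Ni-W cells. In UT cells PLOD2 was the least abundant of the 3, and in Ni-E cells its levels overlapped those of PLOD1. No test of a share was made.

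Among the α subunits P4HA1 supplied most of the RNA in every library, from 62.6% to 79.3%. P4HA2 supplied 20.7% and 27.4% in UT cells, 27.8% and 34.8% in Ni-E cells, and 23.6% and 37.4% in Ni-W cells. In each condition the duplicate library had the higher share, and the Ni-W range covered that of Ni-E cells. The summed α subunits were at 60.7 and 38.8 TPM in UT cells, 111 and 88.2 TPM in Ni-E cells, and 109 and 63.7 TPM in Ni-W cells. P4HB RNA therefore exceeded them by 15.2 and 24.2 times in UT cells, 9.35 and 11.4 times in Ni-E cells, and 8.83 and 15.3 times in Ni-W cells. Of the lysyl oxidase RNA, 78.7% to 87.0% came from LOXL1, a homolog outside the 10 members, and 0.93% to 1.95% from LOX. LOXL1 was at 39.0 and 38.8 TPM in UT cells, 41.1 and 42.8 TPM in Ni-E cells and 29.2 and 34.2 TPM in Ni-W cells, and it was not called.

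**Figure D3:**
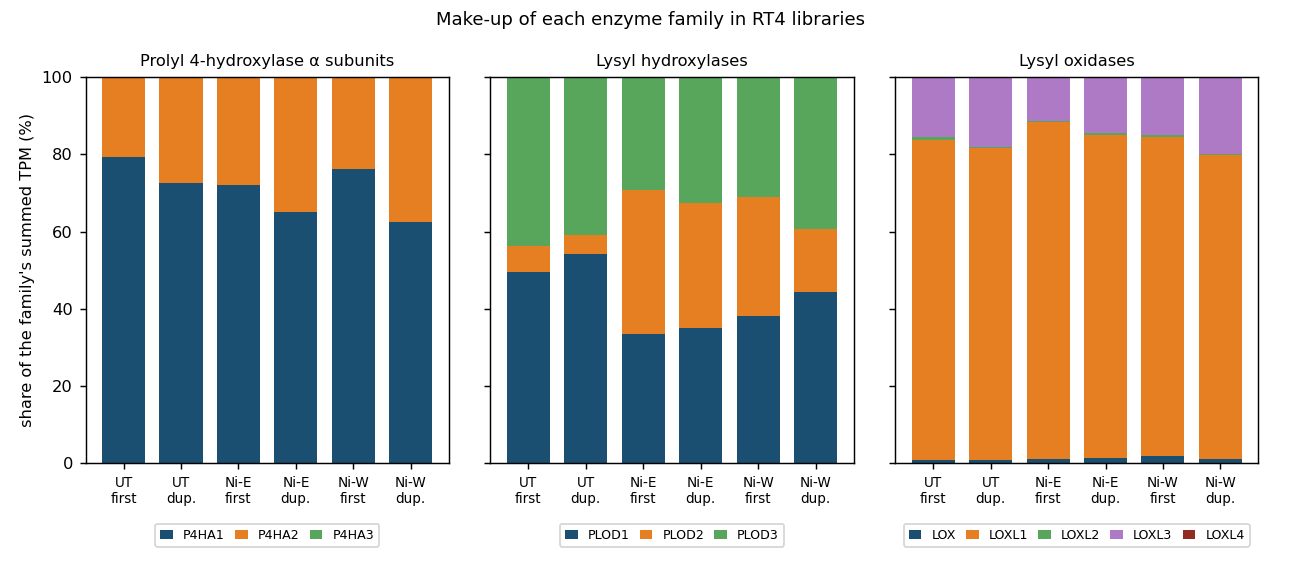
Share of each enzyme in the summed TPM of its family, in percent, for each of the 6 RT4 libraries. The PLOD2 share is 4.78% to 6.85% in UT cells and 32.2% to 37.2% in Ni-E cells, P4HA1 holds 62.6% to 79.3% of the α subunits, and LOXL1 holds 78.7% to 87.0% of the lysyl oxidases.

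Other steps of collagen synthesis were followed with lists of genes. Of 23 other collagen-modifying enzymes and chaperones, among them SERPINH1, the collagen chaperone of the endoplasmic reticulum, and the prolyl 3-hydroxylases, 17 were tested. None of the 17 was called in any of the 3 comparisons by edgeR without a replicate block. Under an unadjusted p of 0.05 were 5 in Ni-E vs UT, 1 in Ni-W vs UT and 1 in Ni-W vs Ni-E. Over all genes tested these shares were 12.2%, 9.12% and 5.57%. In Ni-E vs UT 1 was called by edgeR on the 2 groups alone, and 1 of the 21 tested by DESeq2 or by edgeR without a filter. Their median log2 fold change for Ni-E vs UT was 0.09. Of 44 collagen chains 21 were tested and 2 rose in Ni-E vs UT. COL6A1, a chain of the microfibrillar collagen VI, was at 27.9 and 28.2 TPM in UT cells and 72.6 and 67.9 TPM in Ni-E cells (log2 fold change 1.31 ± 0.21, adjusted p = 0.0472). COL17A1, a transmembrane collagen of hemidesmosomes, was at 37.4 and 31.3 TPM in UT cells and 90.2 and 74.7 TPM in Ni-E cells (log2 fold change 1.25 ± 0.16, adjusted p = 0.0266). Without any 1 of the UT or Ni-E libraries the log2 fold change was 1.17 to 1.46 for COL6A1 and 1.19 to 1.31 for COL17A1. With 1 library left in a group, the fit cannot show whether these calls hold. The median log2 fold change of the 21 chains for Ni-E vs UT was −0.08, and it ran from −0.14 to 0.18 with a library left out, so that its sign was not stable. No collagen chain was called in the other 2 comparisons by edgeR without a replicate block. Under an unadjusted p of 0.05 were 6 and 4 of the 21, against 9.12% and 5.57% of all genes. Of the 34 chains that DESeq2 tested it called 3 as higher and 1 as lower in Ni-W vs UT and 0 in Ni-W vs Ni-E. Without a filter edgeR called 1 of 34 in Ni-W vs UT. COL1A2 was at 0 in every library and COL1A1 at 0.53 to 0.85 TPM, so that RT4 cells carried little RNA for collagen I.

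Of the 5 oxygen-sensing hydroxylases EGLN3 rose in Ni-E vs UT, from 124 and 99.98 TPM to 240 and 205 TPM (log2 fold change 0.98 ± 0.15, adjusted p = 0.0404), and the other 4 were not called. Without any 1 of the UT or Ni-E libraries the log2 fold change of EGLN3 was 0.95 to 1.02, which does not show whether the call holds. Of 25 HIF target genes outside the collagen enzymes 13 rose and none fell in Ni-E vs UT, with a median log2 fold change of 1.29. EGLN3 is in both lists. The largest differences among those called were those of ANGPTL4, at 2.42 ± 0.31 (SE), and ADM, at 2.30 ± 0.29 (SE). In Ni-W vs UT 2 rose, BHLHE40 and HILPDA, with a median of 0.73. Leaving out any UT or Ni-E library gave a median of 1.25 to 1.32 in Ni-E vs UT. Without any 1 of the 6 libraries the median in Ni-W vs UT was 0.63 to 0.77. Such a fit has 1 library in a group and cannot show whether these calls hold. In Ni-W vs Ni-E none was called by edgeR without a replicate block and the median was −0.54. Under an unadjusted p of 0.05 were 11 of these targets and 5.57% of all genes, and DESeq2 called 4 of the targets as lower. In both comparisons with UT the log2 fold changes of PLOD2 and P4HA2 lay above the median of this list and those of P4HA1 and LOX below it. Those of LOXL2 were negative, at −0.27 ± 0.54 (SE) in Ni-E vs UT and −0.66 ± 0.56 (SE) in Ni-W vs UT.

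The 5 genes whose profile over the 6 RT4 libraries was closest to that of PLOD2 were NRG1, TMEM45A, CHST2, HES2 and EFEMP1, out of 11135 genes compared by Euclidean distance of centred log2 CPM. The distances were 0.38 for NRG1, 0.55 for TMEM45A, 0.65 for CHST2, 0.68 for HES2 and 0.82 for EFEMP1. NRG1, a ligand of ERBB receptors, was at 1.10 and 0.98 TPM in UT cells, 10.7 and 8.31 TPM in Ni-E cells and 6.19 and 4.27 TPM in Ni-W cells. The choice by likeness fixes that their levels follow those of PLOD2, and this is a description over 6 libraries that share their conditions.

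For BEAS-2B cells, the chromatin mark H3K4me3, which is found at active promoters, was measured over 2 kb on each side of the start site. All RPKM values (100%) were whole multiples of 1 read within rounding, and gave depths of 28385713 reads in UT, 37493966 in Ni-E and 29933481 in Ni-W cells. The intervals given here are 95% Wilson intervals of these reads and cover counting error only, because there is 1 library per condition. No p-value is given for these comparisons. Reads summed over the listed promoter windows came to 37.6% (UT), 36.0% (Ni-E) and 22.9% (Ni-W) of the depth. Reads in windows that overlap were counted more than once in these sums. All 10 members were at or above 1 RPKM in at least 1 library.

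PLOD2 had the highest H3K4me3 of the members, 19.4 RPKM in UT cells (18.6 to 20.2), 17.3 RPKM in Ni-E cells (16.6 to 17.9) and 13.8 RPKM in Ni-W cells (13.1 to 14.5), which is the 99.9th, 99.8th and 99.9th percentile of all promoters. P4HB followed with 14.1 (UT), 13.3 (Ni-E) and 7.24 RPKM (Ni-W), and further values are given in this order. PLOD3 had 10.4, 10.9 and 4.635 RPKM, but its 4 kb window overlaps that of ZNHIT1, which starts 584 bases away on the other strand and had 10.4, 10.9 and 4.635 RPKM as well. The signal of these promoters cannot be told apart.

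P4HA1 had 9.66, 8.11 and 8.05 RPKM, LOX 8.44, 7.11 and 4.55 RPKM, and P4HA2 7.54, 6.20 and 4.63 RPKM. LOXL2 had 6.19, 6.53 and 3.46 RPKM and PLOD1 4.201, 4.15 and 1.86 RPKM. P4HA3 and LOXL4 were lowest, at 1.29, 0.953 and 0.727 RPKM and at 1.56, 1.21 and 0.810 RPKM. These 2 are also the members at or under the floor in the RNA of RT4 cells, which is another cell line. LOX held far more H3K4me3 in BEAS-2B cells than LOXL4, although no RNA of BEAS-2B cells was analysed here to set beside it.

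**Figure D4:**
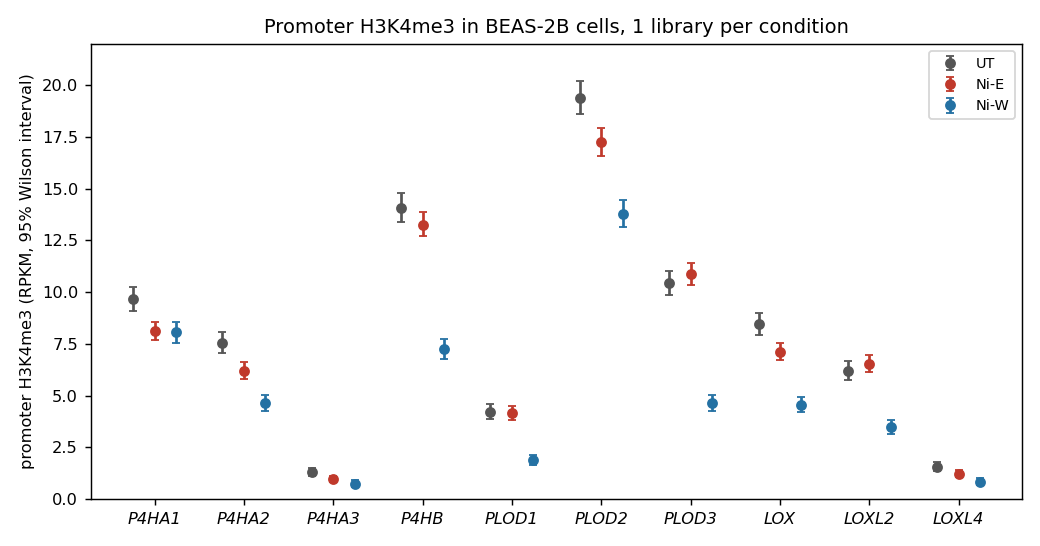
Promoter H3K4me3 of the 10 members in BEAS-2B cells in RPKM, 1 library per condition, with 95% Wilson intervals of the reads. PLOD2 is highest in all 3 libraries (13.8 to 19.4 RPKM) and P4HA3 and LOXL4 are lowest (0.727 to 1.56 RPKM). Values are not scaled to the library median.

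To compare conditions, each value was divided by the median of its library, 1.568 RPKM in UT, 1.387 in Ni-E and 1.119 in Ni-W cells. For Ni-E over UT the ratios of the members ran from 0.838 (P4HA3) to 1.19 (LOXL2), and none was past 1.5-fold, against 1.01% of all promoters higher and 0.595% lower. PLOD2 had a ratio of 1.01 (0.9503 to 1.06) and P4HA2 of 0.930 (0.847 to 1.02), which after scaling did not differ from 1 beyond counting error. PLOD3 at 1.18 (1.09 to 1.27) and LOXL2 at 1.19 (1.08 to 1.31) were then above 1 by more than counting error. These readings turn on the scaling. Without it the ratios were 0.890 for PLOD2 and 0.823 for P4HA2, whose RPKM intervals in UT and Ni-E cells did not overlap (7.05 to 8.06 and 5.82 to 6.61 RPKM for P4HA2), and 1.04 for PLOD3 and 1.06 for LOXL2, whose intervals did. After scaling the median ratio was 0.980 over the members and 1.08 over all promoters, so that 1 is not the centre of these ratios. Among all promoters LOXL2 then stood at percentile 87.4, PLOD3 at 84.5, PLOD1 at 66.5, P4HB at 45.1 and PLOD2 at 24.0. LOX stood at 12.9, P4HA1 at 12.4, P4HA2 at 10.2, LOXL4 at 6.12 and P4HA3 at 3.88.

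For Ni-W over UT 2 members were lower by 1.5-fold or more, PLOD1 at 0.621 (0.530 to 0.728) and PLOD3 at 0.623 (0.564 to 0.690), and none was higher. Of all promoters 18.4% were lower and 4.39% higher, and the median ratio was 0.802 over all promoters (log2 ratio −0.32) and 0.769 over the members. The split depends on the scaling: without it 71% of promoters were lower and 1.85% higher and 8 of the 10 members were lower, and with quantile normalization 5.39% were lower and 8.03% higher and no member was past 1.5-fold. Relative to other promoters, P4HA1, PLOD2 and P4HA2 kept more of the mark than most. Among all promoters P4HA1 stood at percentile 88.5, PLOD2 at 77.7 and P4HA2 at 60.6. With quantile normalization they stood at 87.4, 62.5 and 62.9. P4HA1 had a ratio of 1.17 (1.07 to 1.27), which was 0.833 without scaling, and PLOD2 a ratio of 0.997 (0.935 to 1.06), which was 0.711 without scaling. Among the 940 promoters of like level in Ni-E cells the ratio of P4HA1 stood at the 95th percentile, and among 945 that of P4HA2 at percentile 65.7. The ratio of PLOD2 stood at percentile 88.6 among the 938 promoters of the highest level. Their median was 13.0 RPKM in Ni-E cells, below the 17.3 RPKM of PLOD2. PLOD3 stood at percentile 6.90 and PLOD1 at percentile 11.5 of their own groups of 942 and 933 promoters. The Ni-W cells are 1 clone and 1 library, and a difference of this clone or library cannot be told apart from one of the condition.

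**Figure D5:**
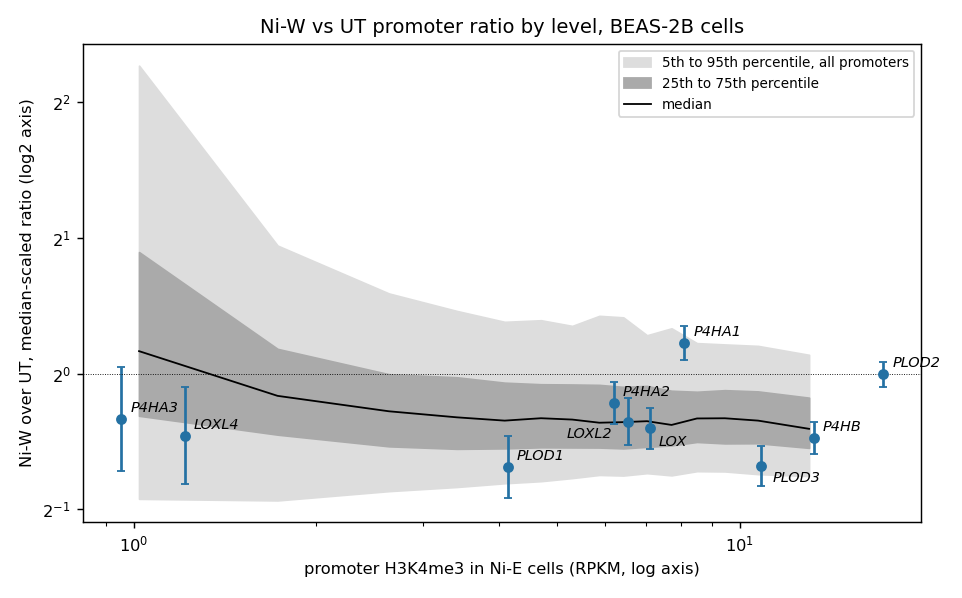
Ratio of Ni-W over UT promoter H3K4me3 after median scaling (log2 axis) against the level in Ni-E cells (log axis, RPKM). Bands and line are percentiles over all promoters with at least 1 RPKM in a library, in 15 groups of like level, and points are the members with 95% intervals of counting error. P4HA1 at 1.17 lies at the upper edge of the band and PLOD1 and PLOD3 at 0.621 and 0.623 lie low in it.

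For Ni-W over Ni-E 3 members were lower by 1.5-fold or more, PLOD3 at 0.529 (0.480 to 0.582), PLOD1 at 0.557 (0.478 to 0.649) and LOXL2 at 0.656 (0.585 to 0.736), against 30.3% of all promoters, and none was higher, against 4.07%. P4HB was next at 0.677 (0.625 to 0.733), just inside the threshold, and P4HA1 was highest at 1.23 (1.13 to 1.34). The median was 0.810 over the members and 0.751 over all promoters. Without scaling 63.8% of promoters were lower and 2.24% higher, and 5 members were lower. With quantile normalization 6.07% of promoters were lower and 8% higher, no member was lower, and P4HA1 was past 1.5-fold higher at 1.56. PLOD2 was at 0.991 (0.932 to 1.05). Both Ni-W comparisons rest on the same Ni-W library.

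Among the related genes, 5 of the 21 other collagen-modifying enzymes and chaperones with at least 1 RPKM were lower by 1.5-fold or more for Ni-W over UT and none was higher, with a median ratio of 0.767. Of 27 collagen chains with that level 3 were lower and 2 higher, with a median of 1.07. Of 24 HIF target genes 7 were lower and none higher, with a median of 0.731. Over all promoters 18.4% were lower and 4.39% higher, with a median of 0.802. These counts depend on the scaling: without it 71% of all promoters were lower, and with quantile normalization 5.39%.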

How the data were processed

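RT4 RNA-Seq and BEAS-2B H3K4me3 ChIP-Seq were analysed, and ChIP input was not analysed here. For RNA-Seq, RSEM gene tables were deposited by the authors, with estimated counts, TPM and FPKM. Their methods name STAR on hg19, and the alignments behind the RSEM tables are not given in the sources used here. For ChIP-Seq the authors deposited RPKM of a 4 kb promoter window from non-redundant reads aligned to hg38 with BWA, without peak calling, and whether the 2 biological replicates were pooled is not stated.

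Estimated counts were rounded and tested with edgeR 4.0.16 (TMM, filterByExpr, quasi-likelihood test) in 1 model of 3 groups without a block. Alternatives were DESeq2 1.42.0, limma 3.58.1 on log2(TPM + 1) or log2(TPM + 0.1) for genes with a mean of at least 1 TPM, RLE factors, other filters, a replicate block and leaving out each library. Promoters with at least 1 RPKM in a library were compared by median-scaled ratio. Scripts were tested on simulated data. R 4.3.3 and Python 3.11.15 were used. The members and lists were chosen with earlier results of these data known. The text names all members, the called genes of other lists (at most 4 with the largest change, for HIF targets at most 2), and the 5 nearest profiles among genes with a mean of at least 5 CPM. ACTA2, SERPINH1, COL1A1, COL1A2 and LOXL1 were named after their values were seen.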

Additional observations from a re-analysis of the deposited data

How the results depend on the processing

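In Ni-E vs UT 2 members were called by DESeq2, limma, RLE factors, other filters and the 2 groups alone, as in the main test, and 0 to 2 when a library was left out. A sole library left in a group was assumed to vary like the others. Calls lost or gained in such a fit do not show whether a call holds. In Ni-W vs UT the main count of 0 became 2 by DESeq2, 1 without a filter, and 0 to 1 with a library left out. With the replicate number as a replicate block, 3 members were called in Ni-E vs UT and 3 in Ni-W vs UT (P4HA1, P4HA2 and PLOD2), and 1 in Ni-W vs Ni-E (PLOD2, log2 fold change −1.13). The block brought P4HA1 past the threshold in Ni-E vs UT (adjusted p = 0.000525). The calls over all 14502 genes were 314, 87 and 0 in the main test and 1833, 1243 and 655 with the block. DESeq2 called 734, 437 and 139 of 19464 genes. With the block 23 HIF targets were higher and 1 lower in Ni-E vs UT, 16 were higher in Ni-W vs UT and 9 lower in Ni-W vs Ni-E. For collagen chains the block gave 6 higher and 3 lower, 7 and 2, and 4 and 1 in these comparisons, and for the other collagen-modifying enzymes 4 higher and 1 lower, then 1 lower in each. Deviations from the group means of same-numbered libraries correlated at 0.66, 0.76 and 0.69 over genes, but only 2 numbers exist, which also differ in depth, and the labels name no shared batch. Left-out libraries gave from 0 to 320 calls over all genes in Ni-E vs UT, with 0 without either Ni-E library, and from 0 to 38 in Ni-W vs UT. Uncalled members near 0 changed sign in some settings. With a library left out, the log2 fold change of P4HB ran from −0.026 to 0.27 in Ni-E vs UT, from −0.21 to 0.21 in Ni-W vs UT and from −0.32 to 0.10 in Ni-W vs Ni-E. That of LOXL2 ran from −0.88 to 0.11 in Ni-E vs UT and from −0.76 to 0.21 in Ni-W vs Ni-E. In Ni-W vs UT PLOD1 ran from −0.24 to 0.24 and PLOD3 from −0.17 to 0.27, and limma gave PLOD1 0.042 and 0.043 with pseudocounts of 1 and 0.1. P4HA1 ran from −0.61 to 0.052 in Ni-W vs Ni-E. The causes of these changes were not tested.

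For H3K4me3, the 2 members past 1.5-fold in Ni-W vs UT became 8 without median scaling and 0 with quantile normalization or with 1 added to the scaled RPKM. In Ni-W vs Ni-E, 3 became 5, 1 (P4HA1, higher) and 1 in these settings. With 1 added, 4.42% of all promoters were lower and 2.07% higher in Ni-W vs UT, and 12.1% and 1.68% in Ni-W vs Ni-E. No promoter filter and a minimum of 3 RPKM left these counts at 2 and 3, and the count for Ni-E vs UT was 0 throughout. Shares within families are the same in FPKM as in TPM by construction. The depth limits LOX and LOXL2, at 5 to 55 counts, and P4HA3 and LOXL4, which could not be tested.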
